A study of Mus musculus with 12 samples.

Results

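The 34 genes described here belong to the unfolded protein response of the endoplasmic reticulum (ER) and to the integrated stress response. They are a list of named sensors, transcription factors, chaperones, degradation factors and amino acid synthesis genes, picked by their known roles at a time when earlier results of these data were known. All 34 were measured, among 19938 genes in all. The study profiled RNA from 12 samples with Affymetrix arrays, all of one clone of D3, a line of mouse embryonic stem (ES) cells, in 4 groups that each hold 3 samples called biological replicates in the labels. One group is undifferentiated ES cells, day 0. The second is embryoid bodies (EBs), which form when the cells aggregate in bacteriological dishes after LIF is withdrawn, taken on day 4. The other two are EBs given the solvent DMSO for 12 h or given all-trans retinoic acid (ATRA, 5 micromolar) for the same 12 h, and it is not settled by the labels whether those hours fell inside the 4 days or came after. Values are the authors' log2 values per array, changes are log2 differences ± SE from limma (n = 3 arrays per group, fitted over all 12), and a gene is said to rise or fall when its adjusted p is below 0.05.

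The labels of the ATRA and DMSO groups were checked on known retinoic acid targets: Cyp26a1, which encodes a retinoic acid-degrading enzyme, was higher with ATRA than with DMSO by 1.76 ± 0.090, and the retinoic acid receptor gene Rarb by 1.68 ± 0.088. Cyp26a1 was also higher with DMSO than in day 4 EBs, by 0.75 ± 0.090, while the Rarb means there were 6.98 and 7.02. Array medians lay between 7.76 and 7.86, and ES array 2 and EB array 2 had the narrowest spread of values. The mean values of 14 of the 34 genes lay above the 90th percentile of all gene means, where arrays can compress a change. In whole aggregates a change of RNA per cell and a change in the share of a cell type cannot be told apart.

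When unfolded proteins build up in the ER, sensors in its membrane respond. ATF6 is cut to release a transcription factor, the nuclease IRE1 (gene Ern1) splices Xbp1 mRNA into the form that encodes an active transcription factor, and the kinase PERK (gene Eif2ak3) phosphorylates the translation factor eIF2. Phosphorylated eIF2 lowers protein synthesis while favouring translation of Atf4, and other kinases, among them the amino acid sensor GCN2, reach the same point, so ATF4 and its targets are shared with the integrated stress response. These targets include genes of amino acid supply, while ATF6 and XBP1 act mainly on chaperones and ER-associated degradation. Splicing, cutting and phosphorylation are not seen in the array values.

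Both arms act through short DNA elements, and the sequences below show where these lie in front of genes whose values the results turn on. RefSeq windows (GRCm38.p6) of the 250 bases before the gene start were available for 31 of the 34 genes, the others being Atf6, Hyou1 and Manf. A total of 4 motifs were searched as exact letters on both strands: the ER stress element ERSE (CCAAT, then 9 bases of any kind, then CCACG), ERSE-II (ATTGG, 1 base of any kind, CCACG), the core of the unfolded protein response element (TGACGTGG) and the C/EBP-ATF element CARE (TGATGNAA). CCACG and its reverse complement are shared by the first 3 motifs, but no 2 matches overlapped in these windows. ERSE was found in 8 of 31 windows (25.8%), against 0.13% of the windows of 27025 genes. ERSE-II was found in 1 (3.23%, against 0.037%), CARE in 4 (12.9%, against 3.91%) and the unfolded protein response core in 0 (against 0.603%). The genes were picked by known roles in the responses that these motifs serve, so these shares are no independent result about the list. A match is a description of the letters and not a measured binding site. The ERSE matches are given in the direction of the motif, with the letters that define it in capitals:
Hspa5: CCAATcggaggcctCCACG
Hsp90b1, farther match: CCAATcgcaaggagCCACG
Hsp90b1, nearer match: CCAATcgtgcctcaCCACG
Calr: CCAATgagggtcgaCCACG
Canx: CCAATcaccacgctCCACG
Creld2: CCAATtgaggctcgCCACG
Dnajc3: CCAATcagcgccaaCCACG
Pdia6: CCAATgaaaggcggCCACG
Syvn1: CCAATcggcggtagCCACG

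The whole windows of 3 genes follow, 5′ to 3′ on the plus strand, which is the strand of all 3 genes, with matches in capitals. Hspa5 (chr2:34771840-34772089) has ERSE from base -65 to base -47, counted back from the start. Herpud1 (chr8:94386179-94386428) has CARE at -112 to -105, on the opposite strand, and ERSE-II at -52 to -42. Chac1 (chr2:119350992-119351241) has CARE at -193 to -186 on the opposite strand. CARE was also found before Asns and Nupr1.
Hspa5: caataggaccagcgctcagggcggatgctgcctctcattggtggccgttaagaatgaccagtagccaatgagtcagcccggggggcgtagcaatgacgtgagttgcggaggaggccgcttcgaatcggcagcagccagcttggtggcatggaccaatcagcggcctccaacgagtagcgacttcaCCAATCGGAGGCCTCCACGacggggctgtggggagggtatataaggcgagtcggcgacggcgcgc
Herpud1: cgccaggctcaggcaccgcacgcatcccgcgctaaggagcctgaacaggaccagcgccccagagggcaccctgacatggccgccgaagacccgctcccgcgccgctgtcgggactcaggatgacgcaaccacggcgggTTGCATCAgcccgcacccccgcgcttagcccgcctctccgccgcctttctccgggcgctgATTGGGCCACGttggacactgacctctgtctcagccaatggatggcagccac
Chac1: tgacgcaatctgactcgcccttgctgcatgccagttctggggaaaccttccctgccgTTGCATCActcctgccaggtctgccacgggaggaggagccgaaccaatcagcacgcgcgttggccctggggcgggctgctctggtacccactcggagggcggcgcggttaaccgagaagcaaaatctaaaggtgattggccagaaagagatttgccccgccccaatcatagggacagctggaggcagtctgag

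From ES cells to day 4 EBs the genes with the largest rises were Chac1, Trib3, Herpud1 and Nupr1, and with ATRA they were Ddit3, Xbp1 and Herpud1. Day 4 EBs had 17 of the 34 genes higher and 2 lower than ES cells (55.88%, where 34.7% of all genes were called, 17.8% higher and 16.9% lower). The ES and day 4 EB values did not overlap for 23 of the 34, against 41.3% of all genes. Without ES array 2 and EB array 2, the narrow ones, 15 were higher and 2 lower. EBs with ATRA had 9 higher and 0 lower than EBs with DMSO (26.47%, where 13.3% of all genes were called, 6.26% higher and 7.05% lower). Without adjustment, limma gave a p under 0.05 to 14 higher and 0 lower of the 34 for ATRA. The share of all genes at that unadjusted threshold was not computed, so this count has nothing to be set against. The median change of the list was 0.14 in the first comparison and 0.093 in the second, against -4.3e-04 and 0.010 over all genes. These comparisons share no array, but all arrays were fitted together. Both calls of a gene therefore rest on the same variance estimate and are not independent. In both comparisons 3 genes rose, Chac1, Eif2ak3 and Herpud1, which is 17.6% of the first set and 33.3% of the second. As 17 of all 34 genes rose in the first comparison, 3 of 9 is no excess of shared genes. No share of all genes higher in both was computed. Without DMSO array 1, DMSO array 3, ATRA array 2 or ATRA array 3, the ATRA calls of both Chac1 and Eif2ak3 ended, and Herpud1 alone was left. None of these 3 genes passed for ATRA against day 4 EBs. A change of 1.5-fold was reached by 4 of the 19 genes called for day 4 EBs against ES cells and by 0 of the 9 called for ATRA. Among all genes called in either direction, 1433 of 6925 and 342 of 2655 reached it, so the list shows no excess of large changes. By group mean, 23 of the 34 genes were lowest in ES cells and 18 were highest with ATRA. The shares of all genes with these patterns were not computed.

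**Figure D1:**
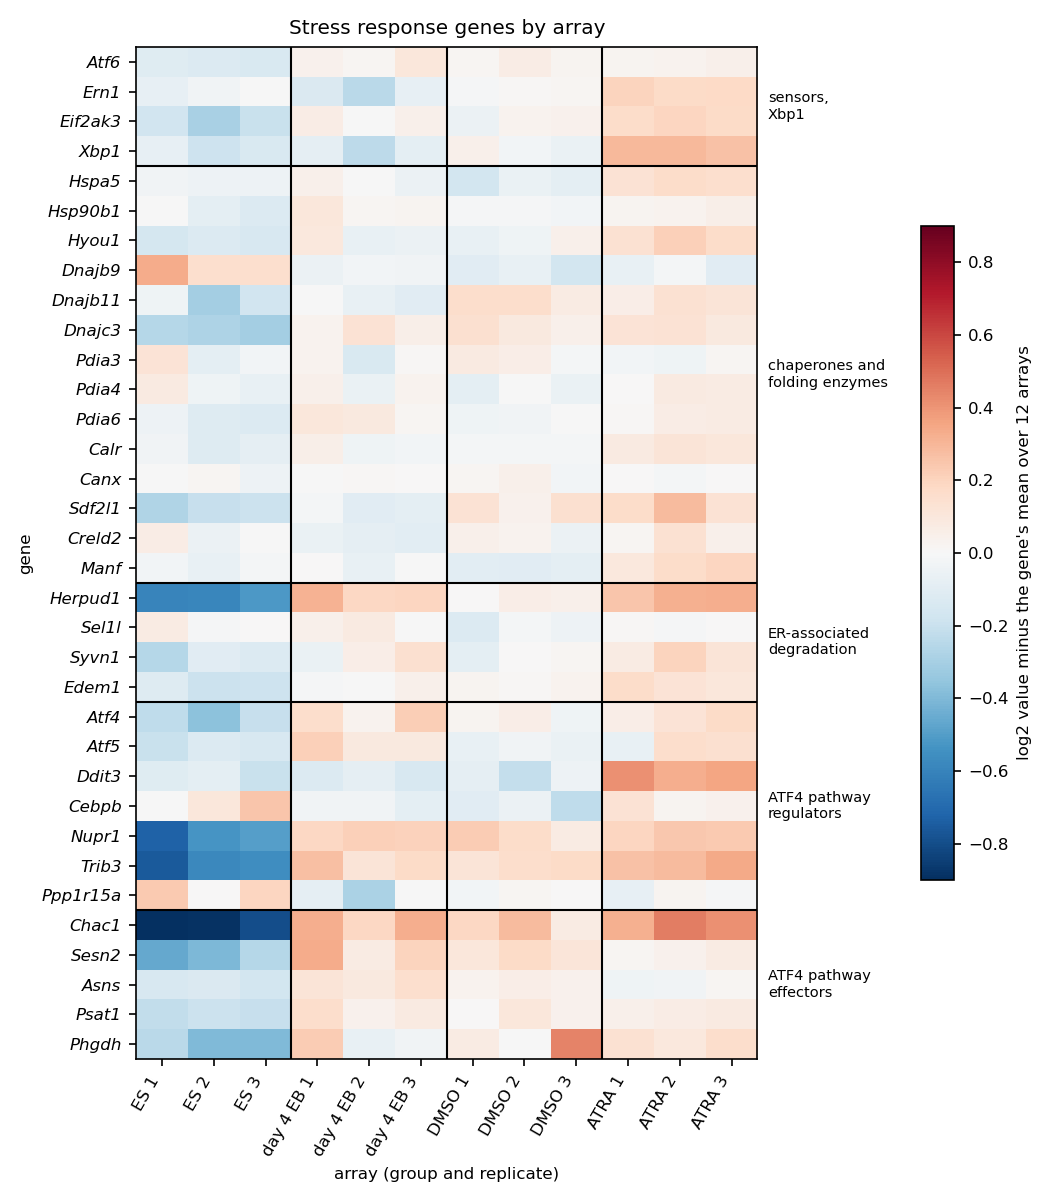
Each row is one of the 34 stress response genes and each column one of the 12 arrays; the colour is the log2 value minus the gene's own mean over the 12 arrays, and black lines part the groups and the roles. The ATF4 pathway rows Chac1, Trib3 and Nupr1 are low in the 3 ES arrays, and Ddit3 and Xbp1 are high in the 3 ATRA arrays.

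The ATF4 pathway effectors rose together from ES cells to day 4 EBs, 5 of 5, where 17.8% of all genes were higher. Chac1, which encodes an enzyme that breaks down glutathione, read 10.24, 10.25 and 10.33 in the 3 ES arrays, 11.46, 11.32 and 11.46 in day 4 EBs, 11.32, 11.42 and 11.21 with DMSO and 11.46, 11.60 and 11.55 with ATRA. Every EB array of any kind was thus above every ES array. The rise from ES cells to day 4 EBs was 1.14 ± 0.065 (2.21-fold, adjusted p = 4.15e-08), the largest of the list. Sesn2, a stress-induced inhibitor of the growth kinase mTORC1, read 10.64, 10.69 and 10.84 in ES cells and 11.43, 11.17 and 11.29 in day 4 EBs, then 11.20, 11.26 and 11.20 with DMSO and 11.11, 11.13 and 11.17 with ATRA. It rose by 0.58 ± 0.069 (adjusted p = 3.07e-05), without overlap between ES cells and any EB group. The serine synthesis genes Phgdh and Psat1 and the asparagine synthetase gene Asns rose by less. Phgdh, the gene of the first enzyme of serine synthesis, read 10.56, 10.41 and 10.40 in ES cells and 11.04, 10.74 and 10.77 in day 4 EBs (change 0.39 ± 0.11, adjusted p = 0.0130). Its DMSO values of 10.88, 10.80 and 11.25 were the widest of the 4 groups, and it read 10.94, 10.90 and 10.96 with ATRA. Without EB array 1 the Phgdh change was 0.298, with an adjusted p of 0.0617. Psat1 rose by 0.30 ± 0.046 and Asns by 0.26 ± 0.040, both with adjusted p values no higher than 2.02e-04.

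Of the 7 transcription factors and regulators of the ATF4 pathway, 4 rose from ES cells to day 4 EBs and 1 fell. Of all genes, 17.8% were higher and 16.9% lower. Trib3, which encodes a pseudokinase that feeds back on ATF4, read 9.10, 9.27 and 9.29 in ES cells and 10.12, 9.97 and 10.02 in day 4 EBs, 9.97, 10.01 and 10.03 with DMSO and 10.12, 10.14 and 10.19 with ATRA. The ES arrays lay below all 9 others, and the rise was 0.82 ± 0.060 (1.76-fold). Nupr1, the gene of a small stress-induced chromatin protein, read 9.95, 10.14 and 10.18 in ES cells and 10.86, 10.89 and 10.88 in day 4 EBs, with 10.90, 10.84 and 10.75 after DMSO and 10.87, 10.92 and 10.91 after ATRA. It rose by 0.79 ± 0.062, and in the other 3 comparisons it did not pass, with changes between -0.044 and 0.068. Atf4 itself, whose protein level is set largely at translation, read 10.27, 10.13 and 10.29 in ES cells, 10.65, 10.52 and 10.72 in day 4 EBs, 10.52, 10.55 and 10.46 with DMSO and 10.55, 10.61 and 10.66 with ATRA. It rose by 0.40 ± 0.062 (adjusted p = 2.31e-04), and the related Atf5 rose by 0.28 ± 0.062. Ppp1r15a, which encodes the phosphatase subunit GADD34 that reverses eIF2 phosphorylation, fell by 0.27 on the log2 scale (adjusted p = 0.0153). The fall of Ppp1r15a did not pass without ES array 1 (adjusted p = 0.0546), ES array 3 (0.0583) or EB array 2 (0.0577). Ddit3, the gene of the stress transcription factor CHOP, was at 9.14 ± 0.059 (SD, n = 3) in ES cells and 9.16 ± 0.031 in day 4 EBs (95% interval of the change -0.10 to 0.13), and Cebpb changed by -0.17 ± 0.067 (adjusted p = 0.0783).

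**Figure D2:**
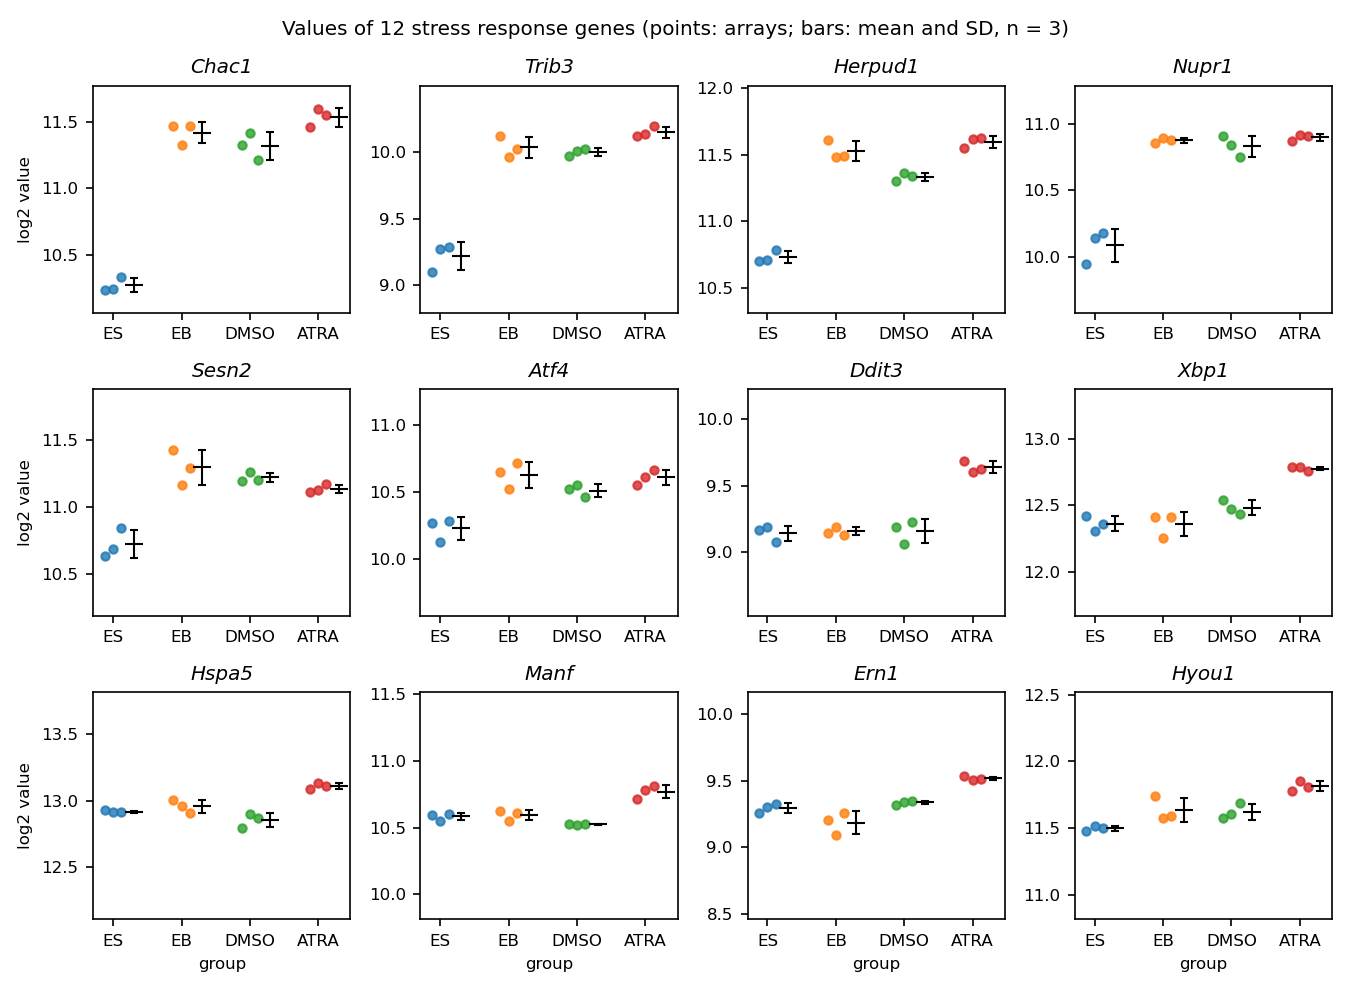
Log2 values of 12 genes in the 4 groups; points are arrays, and the bar beside them is the mean with its SD (n = 3). All panels span the same range of log2 units: Chac1, Trib3, Herpud1, Nupr1, Sesn2 and Atf4 step up between ES cells and day 4 EBs, while Ddit3, Xbp1, Hspa5 and Manf are higher with ATRA than in the other 3 groups.

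Of the 4 genes of ER-associated degradation in the list, a process that draws misfolded proteins out of the ER, 3 rose in day 4 EBs, where 17.8% of all genes were higher. Among 15 other genes of that process, 3 were higher and 1 lower, a called share of 26.67% against 34.7% of all genes. Herpud1, which encodes a membrane protein of the degradation complex, read 10.70, 10.71 and 10.78 in ES cells and 11.61, 11.48 and 11.49 in day 4 EBs. With DMSO it read 11.30, 11.36 and 11.34 and with ATRA 11.55, 11.62 and 11.63. The 3 DMSO values lay between those of ES cells and those of both other EB groups, with no overlap. From ES cells to day 4 EBs Herpud1 rose by 0.80 ± 0.049 (1.74-fold, adjusted p = 9.22e-08). Syvn1, the ubiquitin ligase gene of the same complex, rose by 0.21 ± 0.064, and Edem1, whose product recognises misfolded glycoproteins, by 0.17 ± 0.042. With only the 2 groups compared in the fit, Edem1 (adjusted p = 0.0504) and Syvn1 (0.0790) did not pass. The call of Syvn1 also ended without ES array 1 (adjusted p = 0.0800), EB array 2 (0.0550) or EB array 3 (0.101). Sel1l, the scaffold of that ligase, changed by 0.022 ± 0.045 and did not pass.

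Of the ER chaperones and folding enzymes, 3 of 14 rose in the same step, 1 fell and 10 did not pass, a called share of 28.57% that is near the 34.7% of all genes, with a median change of 0.055 and a range from -0.25 to 0.35. Dnajc3, the gene of a cochaperone that also restrains PERK, read 11.27, 11.25 and 11.22 in ES cells, 11.56, 11.66 and 11.58 in day 4 EBs, 11.67, 11.62 and 11.57 with DMSO and 11.65, 11.66 and 11.62 with ATRA. It rose by 0.35 ± 0.045 (adjusted p = 5.00e-05), and its other probe set holds the same values. Pdia6, a disulfide isomerase gene, rose by 0.16 ± 0.044 (adjusted p = 0.0717 with only the 2 groups in the fit), and Sdf2l1, which encodes an ER chaperone partner, by 0.15 ± 0.053 (adjusted p = 0.0412). Sdf2l1 kept its call in only 1 of the 6 fits that left out an array of these groups (that without EB array 2; in the other 5 the change ran from 0.128 to 0.169 and the adjusted p reached 0.131). Hsp90b1, the gene of the ER chaperone GRP94, changed by 0.12 ± 0.045 (adjusted p = 0.0662) and passed in 5 of 15 alternatives, and Hyou1 changed by 0.13 ± 0.053 (adjusted p = 0.0694) and passed in 4. Dnajb9, an ER cochaperone gene and a known XBP1 target, fell, with a change of -0.25 ± 0.055 (adjusted p = 0.00329). Hspa5, the gene of the central ER chaperone BiP, was at 12.92 ± 0.0078 in ES cells and 12.96 ± 0.049 in day 4 EBs (95% interval of the change -0.058 to 0.13, adjusted p = 0.576). For Pdia4 the main probe set changed by 0.015 ± 0.052, while a second probe set of the gene differed by 0.30 ± 0.079 in the fit to all single-symbol probe sets (adjusted p = 0.0108).

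Of the sensors, Eif2ak3 and Atf6 were higher in day 4 EBs than in ES cells. Eif2ak3 read 10.13, 10.01 and 10.11 in ES cells and 10.37, 10.30 and 10.35 in day 4 EBs, 10.25, 10.34 and 10.34 with DMSO and 10.47, 10.50 and 10.48 with ATRA. Each ES value was below each EB value, and the rise was 0.26 ± 0.047 (adjusted p = 8.24e-04). Atf6 read 10.44, 10.43 and 10.42 in ES cells, 10.59, 10.57 and 10.66 in day 4 EBs, 10.57, 10.62 and 10.58 with DMSO and 10.58, 10.59 and 10.60 with ATRA, and rose by 0.18 ± 0.041 in the first step (adjusted p = 0.00457). Ern1 changed by -0.11 ± 0.048 (adjusted p = 0.101) and Xbp1 by -0.0016 ± 0.054 (adjusted p = 0.989), so neither passed. The 95% interval of the Xbp1 change, -0.12 to 0.12, bounds a rise or fall in that step.

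**Figure D3:**
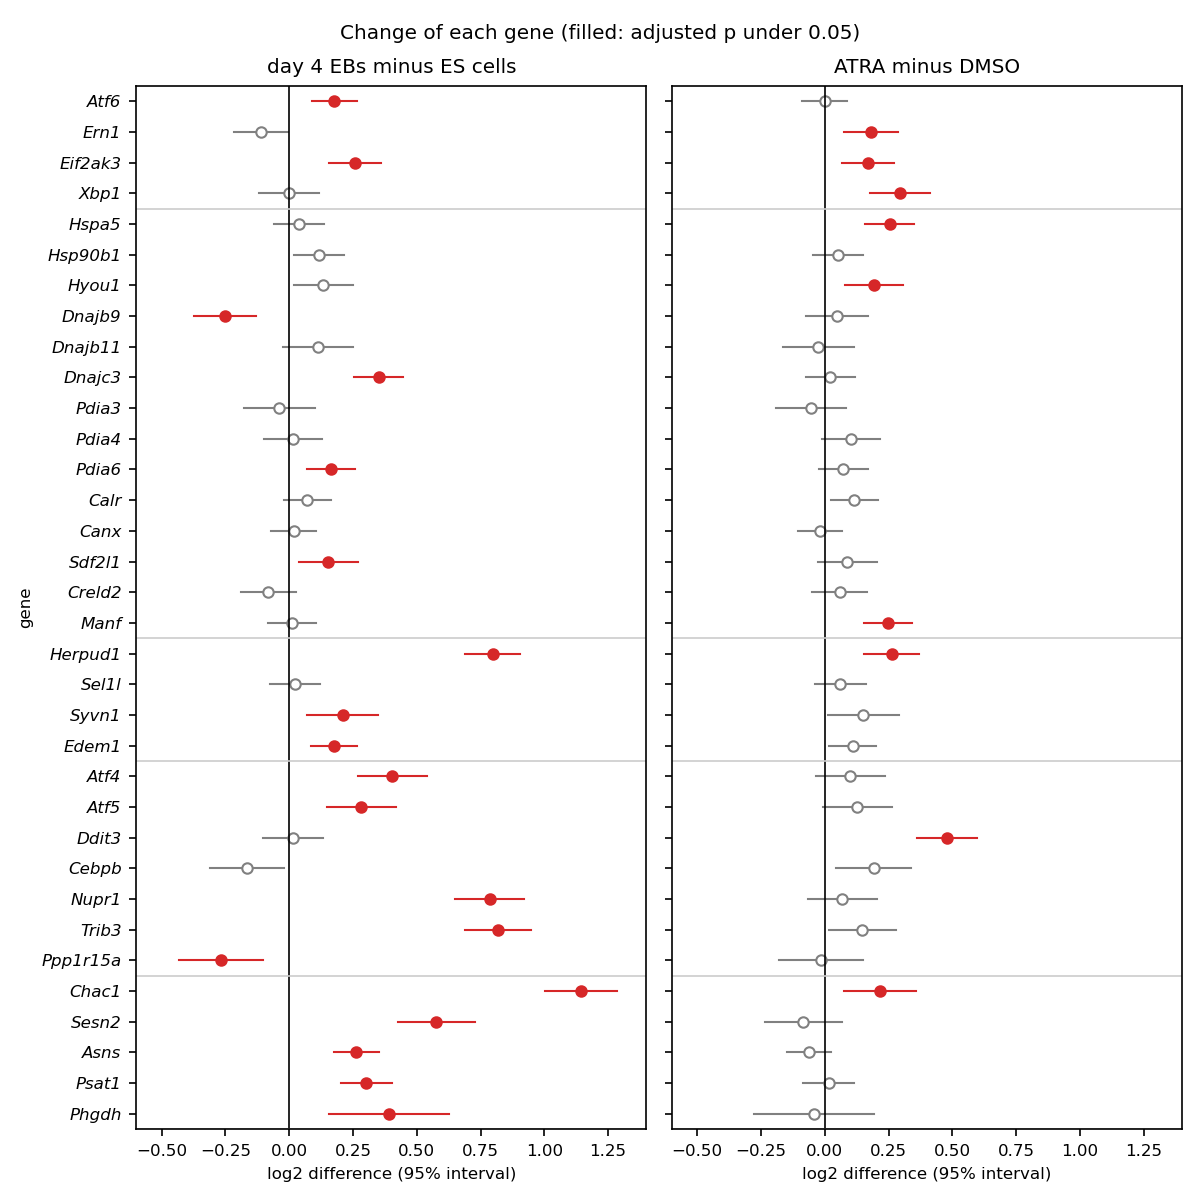
Log2 difference of each of the 34 genes between day 4 EBs and ES cells (left) and between ATRA and DMSO (right), with 95% intervals from the fit; filled points passed an adjusted p of 0.05 and grey lines part the roles. On the left the filled points are mostly in the 3 lower blocks; on the right 6 of the 9 lie in the 2 upper blocks.

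DMSO-treated EBs differed from day 4 EBs in 0 of the 34 genes by limma at an adjusted p of 0.05, where 0.747% of all genes were called, 0.537% higher and 0.211% lower. An unadjusted p under 0.05 was reached by 8 of the 34, 4 higher and 4 lower, with no share of all genes computed at that threshold. The widest changes were those of Herpud1 (-0.19 ± 0.049, adjusted p = 0.0962) and Dnajb11 (0.19 ± 0.064, adjusted p = 0.180). With only the genes above the median in the limma fit, Herpud1 (adjusted p = 0.0225), Sdf2l1 (0.0439) and Ern1 (0.0490) passed. Herpud1 (0.0181) and Sdf2l1 (0.0327) also passed with an intensity trend and robust prior. The groups did not overlap for 14 of the 34 genes, among them Herpud1, Ern1 and Hspa5, where 22.4% of all genes did not overlap. Of the 149 genes that passed in all, 71.8% were higher, a share of 57.7% with quantile normalization and 87.0% with median centring. The count depended on single arrays: it was 0 without DMSO array 1 or EB array 1, 2 without DMSO array 3, 33 without EB array 2 and 48 without EB array 3.

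With ATRA, the sharpest rise of the list against DMSO was that of Ddit3. It read 9.69, 9.60 and 9.63 in the 3 ATRA arrays, against 9.19, 9.06 and 9.23 with DMSO, 9.15, 9.19 and 9.13 in day 4 EBs and 9.16, 9.19 and 9.07 in ES cells. The other 3 groups overlapped one another, and all 9 of their arrays lay below the ATRA arrays. The rise over DMSO was 0.48 ± 0.054 (1.39-fold, adjusted p = 7.33e-05), and that over day 4 EBs 0.48 ± 0.054. The other 6 regulators of the ATF4 pathway did not pass, Atf4 at 0.10 ± 0.062 (95% interval -0.036 to 0.23, adjusted p = 0.350) and Trib3 at 0.15 ± 0.060 (adjusted p = 0.138) among them, though Trib3 passed with array weights (0.0281) and with only the 2 groups in the fit (0.0436). Of the 5 effectors, Chac1 rose by 0.22 ± 0.065 (adjusted p = 0.0450). The Chac1 call ended without DMSO array 1 (adjusted p = 0.104), DMSO array 3 (0.170), ATRA array 2 (0.167) or ATRA array 3 (0.130). Sesn2 (-0.084 ± 0.069), Asns (-0.062 ± 0.040), Phgdh (-0.044 ± 0.11) and Psat1 (0.015 ± 0.046) did not pass.

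Of the 4 sensors and their transcription factors, 3 rose with ATRA, where 6.26% of all genes were higher. Xbp1 read 12.78, 12.78 and 12.76 in the ATRA arrays and 12.54, 12.47 and 12.43 with DMSO, against 12.41, 12.26 and 12.41 in day 4 EBs and 12.42, 12.31 and 12.36 in ES cells. Its ATRA values were above those of every other array, and the rise over DMSO was 0.29 ± 0.054 (1.23-fold, adjusted p = 0.00290). Ern1, whose product splices Xbp1 mRNA, read 9.53, 9.51 and 9.51 with ATRA, 9.32, 9.34 and 9.35 with DMSO, 9.20, 9.09 and 9.26 in day 4 EBs and 9.26, 9.30 and 9.33 in ES cells, a rise over DMSO of 0.18 ± 0.048 (adjusted p = 0.0265). Eif2ak3 rose by 0.17 ± 0.047 (adjusted p = 0.0302), while Atf6 was at 10.59 ± 0.029 with DMSO and 10.59 ± 0.012 with ATRA (95% interval of the change -0.090 to 0.088). Leaving out any 1 of the 6 arrays ended the calls of Ern1 (change 0.173 to 0.186, adjusted p 0.0622 to 0.0901) and of Eif2ak3 (0.142 to 0.185, 0.0525 to 0.120). Median centring of the arrays also ended the calls of Ern1 (0.0804), Eif2ak3 (0.122), Chac1 (0.0769) and Hyou1 (0.0929).

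Among the chaperones, Hspa5, Manf and Hyou1 rose with ATRA, 3 of 14, and the other 11, whose changes ran from -0.054 upward, did not pass. That is a called share of 21.43%, against 13.3% of all genes, of which 6.26% were higher. Hspa5 read 13.09, 13.13 and 13.11 in the ATRA arrays, above 12.80, 12.90 and 12.87 with DMSO, 13.01, 12.96 and 12.91 in day 4 EBs and 12.93, 12.91 and 12.91 in ES cells. The ATRA values did not overlap with those of any other group, and the rise over DMSO was 0.25 ± 0.044 (1.19-fold, adjusted p = 0.00195). Manf, which encodes a secreted ER stress protein that binds BiP, read 10.72, 10.78 and 10.81 with ATRA and 10.52, 10.52 and 10.53 with DMSO, 10.62, 10.55 and 10.61 in day 4 EBs and 10.60, 10.55 and 10.60 in ES cells. It rose by 0.25 ± 0.043 (adjusted p = 0.00199), from the group with the lowest values to the highest. Hyou1, the gene of a large ER chaperone that helps BiP release its nucleotide, read 11.78, 11.85 and 11.80 with ATRA, 11.57, 11.60 and 11.68 with DMSO, 11.74, 11.57 and 11.59 in day 4 EBs and 11.48, 11.51 and 11.50 in ES cells. Its rise of 0.19 ± 0.053 (adjusted p = 0.0303) did not pass without ATRA array 1 (0.0570), ATRA array 2 (0.119), ATRA array 3 (0.0838), DMSO array 1 (0.113) or DMSO array 2 (0.0919). Calr, the calreticulin gene, stood at 0.12 ± 0.042 (adjusted p = 0.101), and its membrane-bound relative Canx at -0.018 ± 0.040. The protein disulfide isomerase genes did not pass either, Pdia4 at 0.10 ± 0.052 and Pdia3 at -0.054 ± 0.063. Herpud1 rose by 0.26 ± 0.049 (adjusted p = 0.00337) to values near those of day 4 EBs, from which it differed by 0.069 ± 0.049, so its ATRA call is relative to the lower DMSO values. The other 3 degradation genes had non-overlapping values, all higher with ATRA, but did not pass, Syvn1 at 0.15 ± 0.064 and Edem1 at 0.11 ± 0.042. Over the whole list the ATRA and DMSO values did not overlap for 20 of 34 genes, against 39.6% of all genes. Ddit3, Xbp1, Herpud1, Hspa5 and Manf kept their calls under all 14 alternatives computed, and the count of 9 fell to 5 without DMSO array 1, ATRA array 2 or ATRA array 3.

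The last comparison sets ATRA against day 4 EBs: 7 of the 34 genes were higher and 1 lower, where 18.4% of all genes were called, 7.79% higher and 10.6% lower. Values did not overlap for 14 of the 34, against 36.7% of all genes. This comparison shares its arrays with those above, and its groups differ in DMSO as well as in ATRA. Ddit3, Xbp1 (0.42 ± 0.054), Ern1 (0.33 ± 0.048), Manf (0.18 ± 0.043), Hyou1 (0.18 ± 0.053) and Hspa5 (0.15 ± 0.044) were higher here too. Sdf2l1 read 11.67, 11.72 and 11.74 in ES cells, 11.92, 11.83 and 11.85 in day 4 EBs, 12.06, 11.97 and 12.08 with DMSO and 12.10, 12.22 and 12.06 with ATRA, so that both treated groups lay above the untreated ones. It was higher with ATRA than in day 4 EBs by 0.26 ± 0.053 (adjusted p = 0.00440), and the ATRA and DMSO values overlapped. Asns went the other way: it read 13.30, 13.31 and 13.28 in ES cells, 13.56, 13.53 and 13.59 in day 4 EBs, 13.47, 13.50 and 13.48 with DMSO and 13.41, 13.41 and 13.46 with ATRA, and fell against day 4 EBs, with a change of -0.14 ± 0.040 (adjusted p = 0.0334). The calls of Ddit3, Xbp1, Ern1 and Sdf2l1 held without any single array. Those of Hspa5, Hyou1, Manf and Asns ended without ATRA array 2 or ATRA array 3, so that 4 rises were left, with adjusted p values of 0.109, 0.124, 0.0556 and 0.116 without ATRA array 2. Without ATRA array 3 they were 0.0904, 0.0815, 0.0676 and 0.0553. Leaving out ATRA array 1 (0.0653, 0.0588 and 0.114) or EB array 3 (0.122, 0.117 and 0.121) also ended those of Hspa5, Hyou1 and Asns. Without EB array 2 the calls of Hspa5 (0.0624) and Hyou1 (0.100) ended, and without EB array 1 that of Asns (0.0650).

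Genes that carry the motifs printed above moved as follows. All 4 genes with a CARE match, Asns, Chac1, Herpud1 and Nupr1, rose from ES cells to day 4 EBs, by 0.26 to 1.14, and 2 of them rose with ATRA. Of the 8 genes with an ERSE match, 3 rose in day 4 EBs (Dnajc3, Pdia6 and Syvn1) and 1 rose with ATRA (Hspa5), where the 8 changes ran from -0.018 to 0.25. Herpud1, the gene with ERSE-II, rose in both comparisons. Over the whole list, with or without a match, 17 of 34 genes rose in day 4 EBs and 9 of 34 with ATRA. Among all genes 17.8% and 6.26% were higher. Whether a motif goes with the direction of change was not tested. No match to the 4 motifs lay in the windows of Ddit3 or Xbp1, which says only that these letters are not in those 250 bases.

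Further genes of the pathway were taken in lists drawn up by role, with earlier results of these data known. Their counts are therefore no independent evidence of direction. Of all genes, 17.8% were higher and 16.9% lower in day 4 EBs than in ES cells. With ATRA against DMSO, 6.26% were higher and 7.05% lower. Of 20 other ATF4 pathway targets measured, 18 were higher in day 4 EBs than in ES cells and 0 lower, with a median change of 0.60. They included Stc2, which encodes a secreted glycoprotein (2.13 ± 0.063), Cth, the cystathionine lyase gene of cysteine synthesis (1.59 ± 0.062), the mitochondrial PEP carboxykinase gene Pck2 (1.31 ± 0.061) and Ddit4, an inhibitor gene of mTORC1 (1.12 ± 0.056). Of 18 aminoacyl-tRNA synthetase genes, which charge tRNAs and include known ATF4 targets, 8 were higher and 1 lower, with Lars (0.60 ± 0.045) and Gars (0.29 ± 0.043) among the former. With ATRA, 3 of the 20 other targets rose, Mthfd2 of folate metabolism (0.32 ± 0.066), Jdp2 (0.26 ± 0.063) and Pck2 (0.26 ± 0.061). The DMSO means of these 3 lay below those of day 4 EBs, and the median change of the 20 targets from day 4 EBs to DMSO was -0.12, with 1 higher and 10 lower at an unadjusted p under 0.05 and 0 passing in limma. Against day 4 EBs, ATRA gave 1 of the 20 higher and 2 lower, a called share of 15% against 18.4% of all genes. There Mthfd2 (0.14 ± 0.066), Jdp2 (0.14 ± 0.063) and Pck2 (0.019 ± 0.061) did not pass. With ATRA against DMSO, 0 of the 18 synthetase genes passed in either direction in limma (2 higher and 0 lower at an unadjusted p under 0.05). For these unadjusted counts the share of all genes was not computed. The genes of eIF2, its kinases and its exchange factor had 0 higher and 2 lower of 10 in day 4 EBs, Eif2ak2 (-0.60 ± 0.069), the kinase gene that senses double-stranded RNA, and Eif2b3 (-0.22 ± 0.044). Eif2b3 was the 1 gene of that list to rise with ATRA (0.19 ± 0.044).

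Among other folding genes, 3 of 18 were higher and 2 lower in day 4 EBs, led by the ER oxidase gene Ero1a (0.69 ± 0.067). That is 27.78% called, below the 34.7% of all genes. With ATRA its relative Ero1b (0.39 ± 0.067), Hspa13 (0.32 ± 0.079) and Txndc11 (0.18 ± 0.051) rose, 16.67% called against 13.3% of all genes. Derl3, which encodes a degradation channel protein of secretory cells, rose in both comparisons, by 1.15 ± 0.050 in day 4 EBs and by 0.56 ± 0.050 with ATRA (adjusted p = 1.20e-05), and was the only 1 of 15 other degradation genes to pass with ATRA. Of those 15, 3 were higher and 1 lower in day 4 EBs, with a median change of -0.029. Their called shares, 26.67% there and 6.667% with ATRA, lay below those of all genes. Genes of translocation into the ER, signal peptidase and glycosylation were higher in 9 of 18 cases and lower in 0 in day 4 EBs, such as Ostc (0.28 ± 0.045) and Spcs3 (0.24 ± 0.040), and with ATRA 1 of 18 rose, Ssr3 (0.18 ± 0.046). Of 10 genes of ER to Golgi transport and ATF6-type factors, 4 rose in day 4 EBs, with the transcription factor gene Creb3l1 at 1.34 ± 0.073. The protease gene Mbtps1, whose product makes the first cut in ATF6, rose with ATRA (0.20 ± 0.051), as did the transport coat gene Sec24d (0.15 ± 0.043). Cytosolic and mitochondrial heat shock genes, which answer unfolded proteins outside the ER, were lower in 3 of 12 cases and higher in 0 in day 4 EBs, among them Hspa1a (-0.62 ± 0.086), which rose with ATRA (0.30 ± 0.086, the 1 of 12 to pass). The 25% of heat shock genes called in day 4 EBs lay below the share of all genes. With ATRA the same held for the heat shock (8.333%) and translocation (5.556%) lists.

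**Figure D4:**
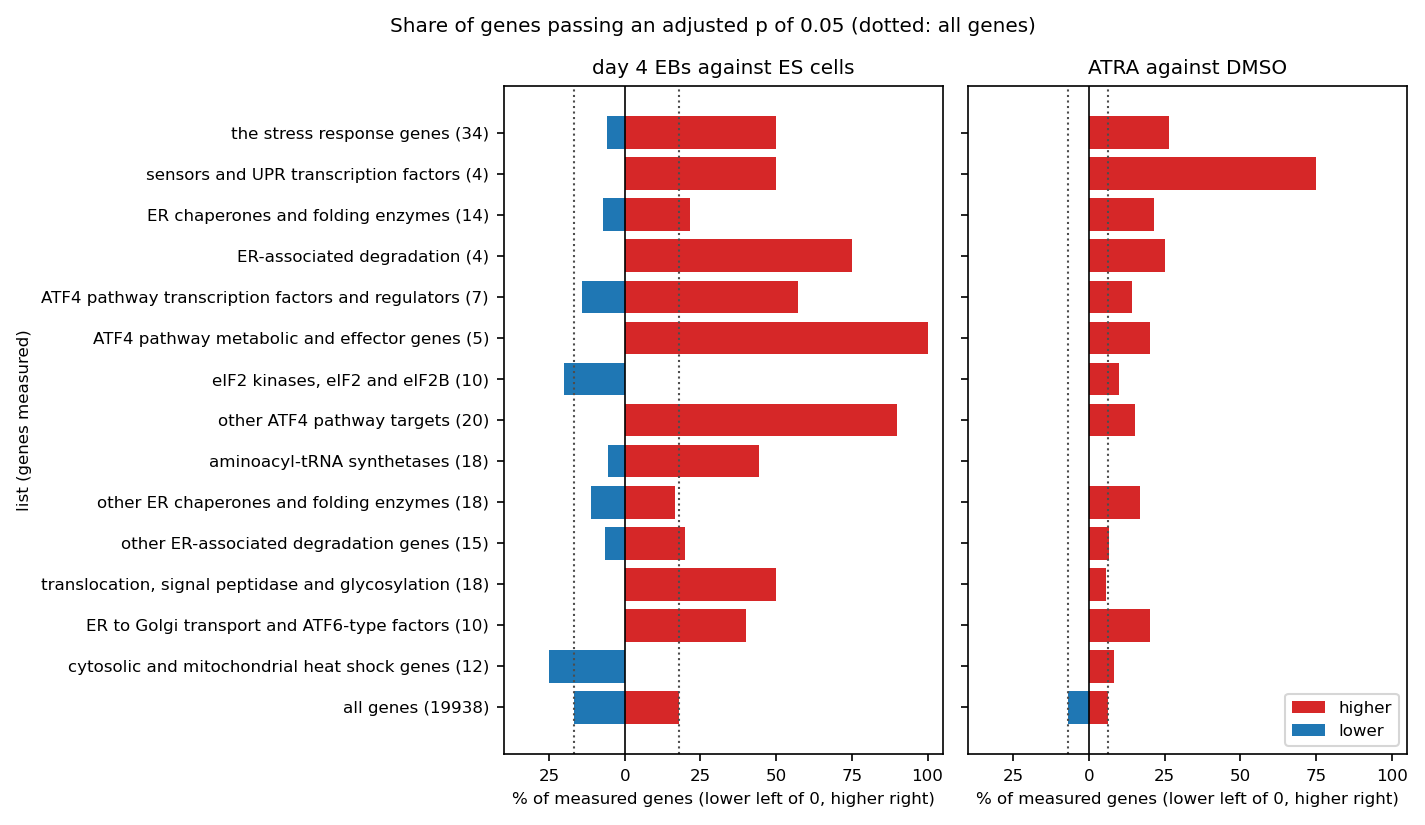
Bars give the percentage of measured genes in each list that passed an adjusted p of 0.05, higher to the right of 0 (red) and lower to the left (blue), with the number measured in brackets; dotted lines mark the percentages over all 19938 genes. In day 4 EBs against ES cells the ATF4 pathway effectors (5 of 5) and the other ATF4 pathway targets (18 of 20) reach farthest to the right, and with ATRA the sensors and their transcription factors do (3 of 4). Among those 3, the calls of Ern1 and Eif2ak3 ended when any 1 of the 6 arrays was left out.

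Markers of other cell types moved along with these comparisons. The 14 visceral endoderm markers, genes of an absorptive and secretory epithelium, had a mean log2 value of 9.03 to 9.06 in ES cells, 10.21 to 10.37 in day 4 EBs, 10.53 to 10.73 with DMSO and 10.39 to 10.54 with ATRA. Of these 14, 13 were higher in day 4 EBs than in ES cells, and with ATRA 1 was higher than with DMSO (Gata6) and 6 were lower, Ttr (-0.54 ± 0.12) and Hnf4a (-0.42 ± 0.070) among them. Those 6 were lower relative to raised DMSO values. Against day 4 EBs, DMSO gave 4 of the 14 higher and 0 lower, where 0.747% of all genes were called. ATRA gave 5 higher and 0 lower against day 4 EBs, where 18.4% of all genes were called. The 10 fibroblast markers had a mean of 9.31 to 9.32 in ES cells, 8.16 to 8.28 in day 4 EBs, 8.15 to 8.18 with DMSO and 8.03 to 8.08 with ATRA, and 8 were lower and 0 higher in day 4 EBs than in ES cells, S100a4 (-2.30 ± 0.065) among them. The 8 pluripotent cell markers, which define the labelled line, had means of 12.90 to 13.06 over the 12 arrays; 3 were higher in day 4 EBs than in ES cells, and 3 were lower with ATRA than with DMSO, Zfp42 (-0.57 ± 0.058) among them. Of all genes, 34.7% were called in day 4 EBs against ES cells and 13.3% with ATRA against DMSO. The part of these markers in the changes of the stress response genes was not tested.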

How the data were processed

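The authors deposited 1 table of log2 values for 35556 probe sets on 12 arrays. That they are log2 was inferred from their range (2.30 to 14.7), while for background correction, normalization and summarization the method is not given in the sources used here. Total RNA came from an RNeasy kit and biotinylated cDNA from the Ambion WT Expression kit, per the labels' protocols. Array medians are nearly equal, so a change of total RNA per cell is hidden. Replicates correlated at 0.992 to 0.997, and their number limits the precision.

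GEO's annotation of the platform gave the names: 21789 had 1 symbol, 1621 several and 12146 were unlisted. Among single-symbol probe sets of a gene, the one of highest mean was used (19938 genes, no filter on low values). A probe set shared by Phgdh and Gm6756 was left out. Tests were two-sided, by limma 3.58.1 (R 4.3.3; lmFit and eBayes), with 1 mean for each group, all 12 arrays fitted together and Benjamini-Hochberg adjustment over all genes. In simulated data for ATRA against DMSO (19938 genes, 200 changed), 26% of genes changed by 0.25 and 76% of those changed by 0.5 were recovered, with 13 false among 164 calls. In the data 2655 genes were called for that comparison, and the adjustment depends on how many genes change. These shares therefore need not hold for the data.

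The genes, roles and further lists were chosen with earlier results of these data known, so they are no independent evidence of direction. Values of every array are given for up to 8 called genes per comparison with the largest non-overlapping changes and for the sensors, Atf4, Ddit3, Hspa5 and Chac1; from each further list up to 4 called genes are named by smallest adjusted p. From the further lists, 13 symbols had no match and are not analysed here. Alternatives changed the scaling (quantile, median centring), the genes (those above the median; probe sets averaged per gene), the variance model (trend and robust prior; weights per array), the arrays (2 groups alone; 1 array left out in turn) or added a replicate block. Leaving out ES array 2 and EB array 2 together was added after the data were seen. Motifs were searched in RefSeq windows of GRCm38.p6.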

Additional observations from a re-analysis of the deposited data

How the results depend on the processing

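With 3 arrays per group, small changes are at the limit of detection. Of the 19 genes of the list called between day 4 EBs and ES cells, 13 kept their call under all 15 alternatives, as did 5 of 9 for ATRA against DMSO (14 alternatives) and 4 of 8 for ATRA against day 4 EBs (15). For ATRA against DMSO the count of 9 higher was 5 with median centring, 5 to 7 with an array left out, 11 with genes above the median and 13 with array weights. There 5 genes passed only under an alternative: Calr and Edem1 in 3 each, Trib3 in 2, Cebpb and Atf5 in 1 each. Genes gained in this way numbered 6 for day 4 EBs against ES cells, 3 for DMSO and 6 for ATRA against day 4 EBs. For day 4 EBs against ES cells the count of 2 lower was 1 with median centring, 4 with array weights, 1 with only the 2 groups fitted and 1 to 3 with an array left out. For ATRA against day 4 EBs the count of 7 higher was 11 with quantile normalization, 12 with genes above the median, 12 with an intensity trend and 4 to 7 with an array left out. The 1 lower there became 0 with median centring and with only the 2 groups, 2 without ES array 2 and EB array 2, and 0 to 2 with an array left out. For DMSO against day 4 EBs the list had 2 higher and 1 lower with genes above the median, and 1 and 1 with an intensity trend. Calls over all genes in that comparison, 149 as reported, numbered 253 with quantile normalization, 761 with genes above the median, 626 with an intensity trend, 25 with only the 2 groups, 27 without ES array 2 and EB array 2, and 0 to 128 with an array left out. For ATRA against DMSO they numbered 4311 with array weights in place of 2655. The causes were not tested, apart from fewer genes or arrays entering a fit.

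Replicate numbers are shared between groups, but same-numbered arrays did not deviate together in every pair (correlations from -0.126 to 0.506), and not every array correlated best with its own number, so the numbers were not taken as a pairing. With the replicate block, 16 genes of the list were higher and 2 lower in day 4 EBs than in ES cells, 6 were higher with ATRA than with DMSO, 5 higher and 0 lower with ATRA than in day 4 EBs, and 62 genes were called in all for DMSO against day 4 EBs.

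Sign changes were seen only for values that did not pass in either fit. They are given for changes that passed in some fit and for the sensors, Xbp1, Atf4, Ddit3, Hspa5 and Chac1. Changes that passed in no fit could also change sign with an array left out and are not all given. Examples are Pdia3 between day 4 EBs and ES cells (-0.084 to 0.022) and Phgdh between ATRA and DMSO (-0.131 to 0.092). Xbp1 between day 4 EBs and ES cells was 0.027 with median centring, 0.025 with array weights, 0.023 without ES array 2 and EB array 2, and -0.029 to 0.050 with an array left out. With an array left out, Ddit3 ran from -0.018 to 0.038 and Pdia4 from -0.014 to 0.059 in the same comparison. For DMSO against day 4 EBs, Ddit3 was -0.0037 with quantile normalization (-0.032 to 0.053 with an array left out) and Atf6 0.0032 with median centring (-0.035 to 0.0084). For ATRA against DMSO, Atf6 was 0.025 with quantile normalization (-0.011 to 0.016). For ATRA against day 4 EBs, Atf4 ran from -0.074 to 0.022 and Atf6 from -0.036 to 0.0077 with an array left out.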
